A study of Mus musculus with 6 samples.

Results

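The genes described here are 10 feedback inhibitors and transcriptional targets of fibroblast growth factor (FGF) signalling through the kinase ERK. They were chosen by name, as the rows Spry1, Spry2, Spry4, Spred1, Spred2, Spred3, Dusp6, Etv4, Etv5 and Il17rd of the deposited tables, and all 10 were found among 41128 listed features. RNA was sequenced from mouse lenses at E13.5 (embryonic day), in 3 libraries of a Prox1 conditional knockout and 3 libraries of wild type, each made from 30 pooled lenses. The knockout (cKO) had the genotype Prox1 f/f MLR10Cre+, in which floxed alleles of the homeodomain factor gene Prox1 are removed by a Cre transgene that is active in the lens. The controls were wild type animals, named C57Bl/6 <har> in the study's design, and the strain of both groups is given as C57Bl/6. Controls with Cre alone or with floxed alleles alone were not analysed here, so loss of Prox1, the transgene and the floxed background cannot be told apart. The labels call the libraries biological replicates and do not give the litters behind each pool, and p-values here therefore cover only the variation from pool to pool.

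FGF binds receptor tyrosine kinases on lens cells, and the signal runs through adaptor proteins and RAS to the kinases RAF, MEK and ERK. In the lens this pathway supports proliferation of the epithelium and drives the elongation and differentiation of fibre cells. Active ERK switches on genes whose products shut the pathway down again. The Sprouty proteins (Spry) and the Sprouty-related SPRED proteins act at the level of RAS and RAF, the phosphatase DUSP6 removes the activating phosphates from ERK itself, and the membrane protein IL17RD, also called SEF, dampens FGF receptor signalling. ETV4 and ETV5 are related ETS transcription factors whose genes are widely used as readouts of FGF and ERK activity.

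Prox1 and 15 of 16 crystallin genes, which encode bulk proteins of lens fibres, fell in the knockout. Levels are given in CPM, counts relative to the library total on the usual per-million scale, corrected by the trimmed mean of M-values (TMM), a factor that corrects for a few abundant genes taking a large share of the reads. Prox1 itself measured 650, 727 and 707 CPM across knockout libraries 1 to 3, against 922, 1215 and 1245 CPM across wild type libraries 1 to 3. It fell by 0.70 in log2 units (edgeR adjusted p 0.0074), and missed the threshold with library totals alone (-0.34, 0.0532). Its count covers all exons, including any that Cre leaves in place. Library totals lay between 9082219 and 28391662 counts. The 16 crystallin genes took between 2.83% and 3.14% of the counts in the knockout and between 13.2% and 22.7% in the wild type, with wild type library 1 the lowest of its group. In pooled tissue, fewer cells of a type and less RNA per cell cannot be told apart.

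Of the 10 genes, 6 rose in the knockout, none fell and 4 did not pass the test. Spry2 and Etv5 were lower at an unadjusted edgeR p under 0.05, DESeq2 called Etv5 lower and limma-voom called none lower. The genes that rose were Etv4, Il17rd, Dusp6, Spred3, Spred2 and Spred1, with increases between 1.44-fold for Spred1 and 2.11-fold for Etv4. The median log2 change over the 10 genes was 0.60, where the median over all 14271 genes tested was 0.04. A rise past the threshold was called for 15.9% of all genes tested, a decrease for 16.8% and a change in either direction for 32.6%, by the edgeR quasi-likelihood test with Benjamini-Hochberg adjustment over all genes and a threshold of 0.05. The groups did not overlap for these 6 genes and overlapped for the other 4. Over all genes tested, 50.1% had groups that did not overlap, 24.3% with the knockout higher and 25.7% with it lower. Each gene was well counted, with between 134 counts (Etv4 in wild type library 3) and 5453 counts (Spred1 in knockout library 1).

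**Figure D1:**
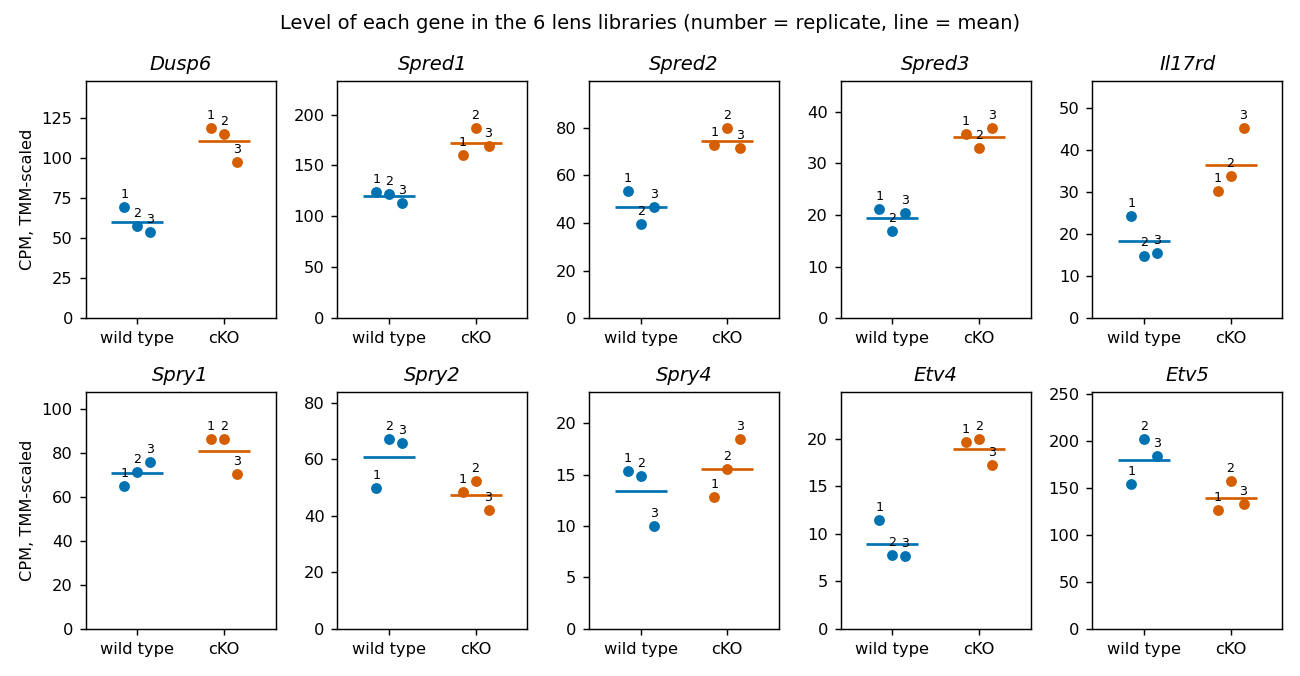
TMM-scaled CPM (vertical axes, each starting at 0) of the 10 genes in 3 wild type (blue) and 3 Prox1 cKO (orange) libraries, where each point is 1 library of 30 pooled lenses, its number is the replicate and the line is the group mean. The groups do not overlap for Dusp6, Spred1, Spred2, Spred3, Il17rd and Etv4, and they overlap for Spry1, Spry2, Spry4 and Etv5.

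All 3 SPRED genes were higher in the knockout. SPRED proteins sit at the membrane, bind the RAS inhibitor neurofibromin and thereby restrain RAS. Spred1 (chromosome 2, 117121374 to 117182279, plus strand, GRCm38) measured 160.2, 186 and 169 CPM across knockout libraries 1 to 3, against 124, 122 and 113 CPM across wild type libraries 1 to 3. Every knockout library lay above every wild type library, and the log2 change of Spred1 was 0.52 (SE 0.0941, edgeR adjusted p 0.00443). Spred2 (chromosome 11, 19924375 to 20024026, plus strand) had 72.7, 79.7 and 71.5 CPM in knockout lenses, against 53.5, 39.6 and 46.6 CPM in wild type lenses. It rose by 0.68 (SE 0.121, edgeR adjusted p 0.00424), again with no overlap between groups. The least abundant of the 3, Spred3 (chromosome 7, 29158829 to 29170411, minus strand), had 35.7, 33.0 and 36.8 CPM in knockout lenses, against 21.1, 16.9 and 20.4 CPM in wild type lenses. Spred3 had the tightest knockout values of the family, 35.1 ± 1.97 CPM (SD, n = 3), and the largest rise, 0.85 (SE 0.119, edgeR adjusted p 0.00144). Exons of Ggn on the opposite strand cover 3.25% of its exon bases, and the libraries kept no strand.

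Dusp6, the ERK phosphatase gene, rose 1.83-fold. It lies on chromosome 10 (99263231 to 99267489, plus strand) and measured 118, 115 and 97.6 CPM across knockout libraries 1 to 3, against 69.3, 57.8 and 53.6 CPM across wild type libraries 1 to 3. The lowest knockout library was thus above the highest wild type library. The log2 change was 0.87 (SE 0.124, edgeR adjusted p 0.0015), with a 95% interval from 0.59 to 1.16 that is not adjusted for the number of genes.

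Il17rd, the gene of the receptor antagonist SEF, had the largest standard error of the log2 change among the 10 genes. It lies on chromosome 14 (27038941 to 27107286, plus strand). Its knockout libraries had 30.1, 33.7 and 45.0 CPM and its wild type libraries 24.2, 14.9 and 15.5 CPM, so knockout library 3 and wild type library 1 were each the highest of their group. The log2 change was 0.98 (SE 0.22, edgeR adjusted p 0.0115). The call was lost without wild type library 2 (log2 0.83, edgeR adjusted p 0.0556) or wild type library 3 (0.86, 0.0501), which left wild type library 1 and 1 other control.

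The 3 Sprouty genes, which encode the founding family of these inhibitors, did not pass the test, and their groups overlapped. Spry1 (chromosome 3, 37639947 to 37644598, plus strand) had 86.2, 86.3 and 70.3 CPM in knockout lenses, against 65.1, 71.3 and 76.0 CPM in wild type lenses, with a log2 difference of 0.20 and a 95% interval from -0.06 to 0.45 (edgeR adjusted p 0.199). A transcript on the opposite strand, Gm42922, covers 24.4% of the exon bases of Spry1. Spry2 (chromosome 14, 105891947 to 105896819, minus strand) had 48.4, 52.3 and 41.9 CPM in knockout lenses, against 49.7, 67.1 and 65.8 CPM in wild type lenses. Wild type library 1 lay among the knockout values for Spry2. Its log2 difference was -0.35, with a 95% interval from -0.67 to -0.04 (edgeR adjusted p 0.081), and it passed when wild type library 1 was left out (-0.52, edgeR adjusted p 0.0115). Spry4, the rarest of the 3 per length, had 12.8, 15.5 and 18.4 CPM in knockout lenses, against 15.4, 14.9 and 10.01 CPM in wild type lenses. The log2 difference of Spry4 was 0.20 with a wide 95% interval, from -0.27 to 0.67 (edgeR adjusted p 0.468), so a change of the size seen for Spred1 lies within what these libraries allow.

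Of the genes for the closely related ETS factors ETV4 and ETV5, Etv4 rose and Etv5 was not called, with a lower mean in the knockout. Etv4 (chromosome 11, 101769742 to 101785371, minus strand) had 19.6, 19.9 and 17.2 CPM in knockout lenses, against 11.5, 7.73 and 7.71 CPM in wild type lenses. It had the largest rise of the 10 genes, with a log2 change of 1.08 (SE 0.184, edgeR adjusted p 0.00361). Etv5 (chromosome 16, 22381309 to 22439719, minus strand) had 126, 158 and 133 CPM in knockout lenses, against 154, 202 and 184 CPM in wild type lenses. The groups overlapped, since knockout library 2 was above wild type library 1. The log2 difference of Etv5 was -0.37, with a 95% interval from -0.67 to -0.08, and missed the threshold (edgeR adjusted p 0.0571). It passed as lower by DESeq2 (adjusted p 0.0295), without a filter on low counts (edgeR adjusted p 0.0377) and without wild type library 1 (0.0161) or knockout library 2 (0.0472).

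**Figure D2:**
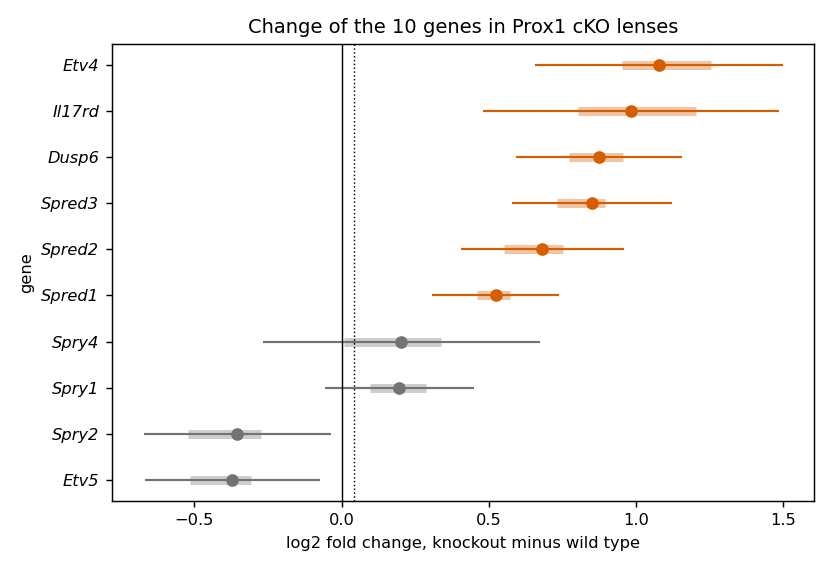
Log2 fold change (horizontal axis, knockout minus wild type) of the 10 genes (vertical axis), with thin lines for the 95% interval of the edgeR fit and thick pale bars for the range when 1 library at a time is left out. The 6 genes past the threshold (orange) lie between 0.52 and 1.08, the other 4 (grey) lie between -0.37 and 0.20, and the dotted line marks the median of all genes tested, 0.04.

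Whether pairs of these genes changed by different amounts was asked with the ratio of their levels within each library, which does not depend on how libraries are scaled. The pairs were chosen with these results known, so the ratios are a description. The log2 ratio of Etv4 to Etv5 was -2.68, -2.98 and -2.94 across knockout libraries 1 to 3, against -3.73, -4.69 and -4.56 across wild type libraries 1 to 3. The ratio was higher by 1.46 in the knockout, or 2.75-fold, and higher in all 3 knockout libraries than in any wild type library (two-sided exact permutation p 0.1, the smallest that 3 against 3 libraries can give). The log2 ratio of Dusp6 to Spry2, both feedback genes of the same pathway, was 1.29, 1.13 and 1.22 in knockout lenses, against 0.48, -0.22 and -0.30 in wild type lenses. It differed by 1.22 with no overlap (exact permutation p 0.1), and wild type library 1 again lay nearest to the knockout. Within the SPRED family, the log2 ratio of Spred3 to Spred1 was -2.29 ± 0.18 in knockout lenses, against -2.62 ± 0.19 in wild type lenses (SD, n = 3), a difference of 0.33 with overlapping groups (exact permutation p 0.2).

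**Figure D3:**
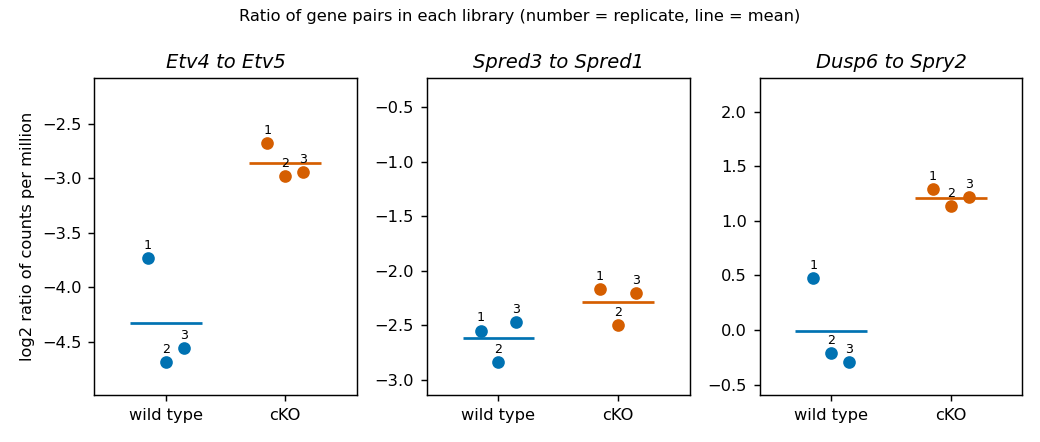
Log2 ratio (vertical axes, each spanning the same range) of the CPM of 3 gene pairs in 3 wild type (blue) and 3 Prox1 cKO (orange) libraries, where the number is the replicate and the line is the group mean. Etv4 to Etv5 and Dusp6 to Spry2 have no overlap between groups, with wild type library 1 nearest to the knockout, and Spred3 to Spred1 overlaps.

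Levels of different genes were compared per length, as the deposited RPKM (reads scaled by transcript length and library total) divided by the TMM factor. In wild type lenses Etv5 had the highest level, 43.8 ± 5.90 RPKM (SD, n = 3), above Spry2 (29.2 ± 4.65), Spry1 (24.3 ± 1.88) and Dusp6 (21.5 ± 2.90), whose library ranges overlapped from neighbour to neighbour. Spred1 (17.6 ± 0.84 RPKM) and then Spred2 (10.1 ± 1.5 RPKM) followed, each without overlap with its neighbours. The 4 lowest genes, Spred3 (3.25 ± 0.37), Spry4 (2.92 ± 0.64), Etv4 (2.89 ± 0.70) and Il17rd (2.22 ± 0.63), overlapped from neighbour to neighbour. In the knockout Dusp6 came first, 39.4 ± 3.97 RPKM, with library values that overlapped those of Etv5 (33.8 ± 4.02 RPKM). The library values of Spred1 (25.3 ± 1.95 RPKM) then overlapped those of Spry1 (27.8 ± 3.15) and those of Spry2 (22.8 ± 2.52). Etv4 went from 6.36 ± 2.29% to 15.3 ± 1.49% of the summed RPKM of Etv4 and Etv5. The summed level of the 3 SPRED genes was 47.3 ± 2.55 RPKM in knockout lenses, against 31.0 ± 2.14 in wild type lenses, while that of the 3 Sprouty genes was 54.0 ± 5.10 and 56.5 ± 5.98.

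**Figure D4:**
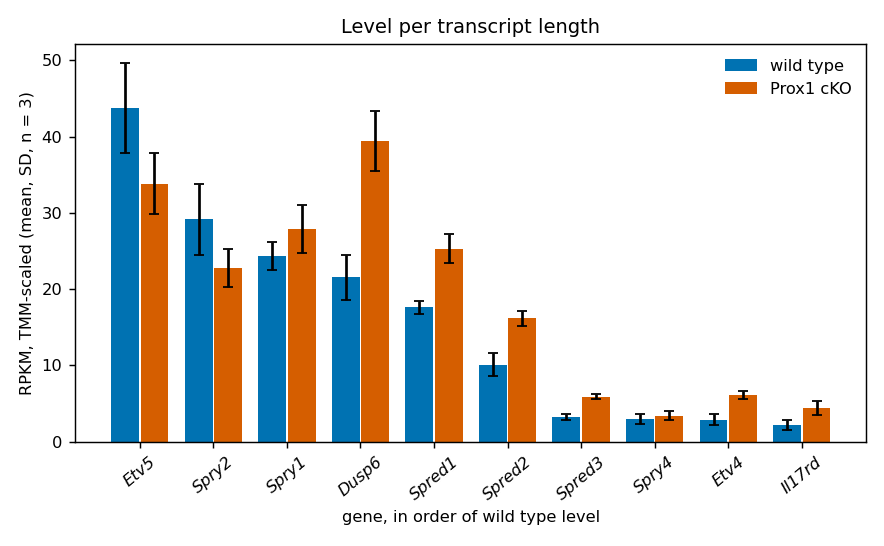
Level per transcript length (vertical axis, RPKM divided by the TMM factor) of the 10 genes in order of their wild type level, as mean and SD of 3 wild type (blue) and 3 Prox1 cKO (orange) libraries. Etv5 is the highest gene in the wild type at 43.8 RPKM, and Dusp6 is the highest in the knockout at 39.4 RPKM.

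Wild type library 1, the wild type library with the lowest crystallin share, was also the wild type library nearest to the knockout mean for 9 of the 10 genes, Spry1 being the exception. It was nearest for 61.9% of all genes tested and for 78.7% of the genes called. Left-out libraries changed the number of the 10 genes that rose only through Il17rd: it was 5 without wild type library 2 or 3 and 6 without any other library. Every one of the other 5 genes passed whichever library was left out.

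Markers of several tissues next to the lens were also higher in the knockout, where 15.9% of all genes tested rose and 16.8% fell. The summed CPM of 8 neural retina markers, all of them detected, lay between 1553 and 2257 in knockout lenses, against 702 to 995 in wild type lenses, and 4 of the 8 rose. Without Sfrp2, the most abundant of them, the 7 others summed to 901, 553 and 580.0 CPM across knockout libraries 1 to 3, against 498, 365 and 387 CPM across wild type libraries 1 to 3. All 5 pigment cell markers rose, with sums of 243 to 689 CPM against 51.1 to 160, and all 4 surface ectoderm markers rose, with sums of 17.9 to 94.7 against 3.21 to 13.2 CPM. The 6 periocular mesenchyme markers, of which Foxc2 was at 0 counts throughout and Col1a1 rose, summed to 447 to 2177 CPM against 185 to 361. Of the 5 lens epithelium markers 4 rose and Foxe3 fell (log2 -0.62, edgeR adjusted p 0.0271), with sums of 2016 to 2235 CPM against 1209 to 1381, and all 6 lens fibre markers found fell. Of the 8 erythroid markers 3 rose, Hba-a1, Hbb-bs and Hbb-bt (edgeR adjusted p 0.0486, 0.0218 and 0.0267), while the sums overlapped (1401 to 2234 CPM against 776 to 2589). The sums also overlapped, with no marker called, for blood vessel endothelium (372 to 503 against 234 to 433), macrophages (47.6 to 65.7 against 23.8 to 53.6) and skeletal muscle (1.44 to 31.0 against 0.87 to 11.5). Knockout library 3 had the highest pigment, mesenchyme, ectoderm and muscle sums. The other knockout libraries also lay above the wild type range for pigment, mesenchyme and ectoderm. Without knockout library 3, all 6 genes passed as higher, Dusp6 by 0.96 and Il17rd by 0.80 (edgeR adjusted p 0.00191 and 0.0296). The part of these other tissues, and of a changed balance of epithelium and fibres, in the rise of the 6 genes was not tested.

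Of the 4 FGF receptor genes tested, which act upstream of the feedback genes, 2 fell and none rose (16.8% and 15.9% of all genes tested). Fgfr3, which encodes an FGF receptor, had 298 ± 78.1 CPM in the wild type and 32.4 ± 6.00 CPM in the knockout, and Fgfrl1, the gene of a receptor-like protein without a kinase domain, had 153 ± 44.8 and 34.9 ± 1.86 CPM (SD, n = 3). Both fell (log2 -3.21 and -2.13, edgeR adjusted p 0.000104 and 0.000275). Fgfr1 and Fgfr2 were not called, with log2 differences of 0.21 and 0.31 (edgeR adjusted p 0.10 and 0.0533), though neither overlapped between groups, and Fgfr4 had too few counts to be tested. Fgfr1 and Fgfr2 passed as higher with library totals alone (edgeR adjusted p 0.00412 and 0.00276) and with upper quartile scaling (0.0486 and 0.0307), and Fgfr2 also by limma-voom (0.0487), with a filter of 1 CPM (0.0461) and without wild type library 3 (0.0426). On the opposite strand, G630022F23Rik covers 13.9% of the exon bases of Fgfr3.

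Of 22 genes of the cascade from the adaptors to ERK and the RSK kinases (Rps6ka genes) that ERK activates, 9 fell, 1 rose and 12 were not called, with a median log2 change of -0.12. Among all genes tested, 16.8% fell and 15.9% rose. The largest decreases were those of Rps6ka2, a kinase gene downstream of ERK (log2 -1.20, edgeR adjusted p 0.000733), and Shc1, an adaptor gene (-1.11, 0.00811). The MEK genes Map2k1 (-0.58, edgeR adjusted p 0.00309) and Map2k2 (-0.54, 0.00596) fell, as did Hras (-0.53, 0.0142), and none of these 3 calls held with library totals alone (edgeR adjusted p 0.184, 0.267 and 0.359). The gene that rose was Rps6ka3 (0.45, edgeR adjusted p 0.0314), and this call was lost without any library except knockout library 1 or wild type library 1. Hras lost its call without wild type library 2 (edgeR adjusted p 0.0567). Mapk3, an ERK gene named here after its values were seen, was not called and averaged 79.2 ± 3.32 CPM in knockout lenses, against 68.8 ± 3.82 in wild type lenses (SD, n = 3). It passed as higher with library totals alone (log2 0.55, edgeR adjusted p 0.00907). The number that fell was 5 without wild type library 2 and 6 without wild type library 3, and 3 fell and 6 rose on the scale of library totals alone, where the median of all genes is 0.39.

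Among 16 other inhibitors of receptor tyrosine kinase, RAS and ERK signalling with enough counts, 2 rose, 2 fell and 12 were not called. Neither count was above the share over all genes tested, 15.9% rising and 16.8% falling. Dusp4, which encodes a nuclear phosphatase of ERK, measured 47.3, 60.2 and 43.0 CPM across knockout libraries 1 to 3, against 9.07, 12.4 and 13.46 CPM across wild type libraries 1 to 3. The groups lay far apart, and its rise of 4.32-fold (log2 2.11, SE 0.183, edgeR adjusted p 0.000181) was larger than that of any of the 10 genes. Rasa2, a gene of a RAS GTPase-activating protein, rose by 0.49 (edgeR adjusted p 0.00894; 0.0563 without wild type library 2). Pebp1, the gene of a RAF kinase inhibitor, fell by 0.62 (edgeR adjusted p 0.00567; 0.154 with library totals alone) and Rasa1 fell by 0.29 (0.0237), though Rasa1 differed by 0.06 with library totals alone, and lost its call without knockout library 2 (0.0881), wild type library 2 (0.0758) or wild type library 3 (0.0771). The list's median log2 change was 0.27. It held 5 rising genes without knockout library 1 or wild type library 1, 1 without wild type library 2, and 11 with library totals alone.

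Of 13 other genes known to respond to ERK, 5 rose, 1 fell and 7 were not called, with a median log2 change of 0.48. The shares over all genes tested were 15.9% rising and 16.8% falling. The early response genes Ier3 (log2 1.32, edgeR adjusted p 0.00978) and Ier2 (1.02, 0.00268) and the growth factor response gene Phlda1 (1.17, 0.0032) rose. So did Etv1, the remaining member of the Etv4 and Etv5 subfamily (0.61, edgeR adjusted p 0.0108), from 71.1 ± 11.1 to 108 ± 11.6 CPM (SD, n = 3). The rise of Ets2 was 0.59 with overlapping groups (edgeR adjusted p 0.049), and it no longer passed without any library except knockout library 1 or wild type library 1 and by limma-voom (0.0524). Myc, the proto-oncogene, fell by 0.62 (edgeR adjusted p 0.00653; log2 -0.28 with library totals alone, 0.207). Ier3 was rare, 2.11 ± 0.30 CPM in knockout lenses, against 0.83 ± 0.12 in wild type lenses, and lost its call without wild type library 2 (0.0545). An opposite-strand transcript, Gm28592, covers 33.0% of the exon bases of Phlda1. The number that rose was 3 without wild type library 2. None of the 3 genes of the Capicua repressor complex, which represses Etv genes among others until ERK signalling relieves it, was called, with log2 differences between 0.14 and 0.27, but 1 rose without knockout library 1 and all 3 with library totals alone.

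**Figure D5:**
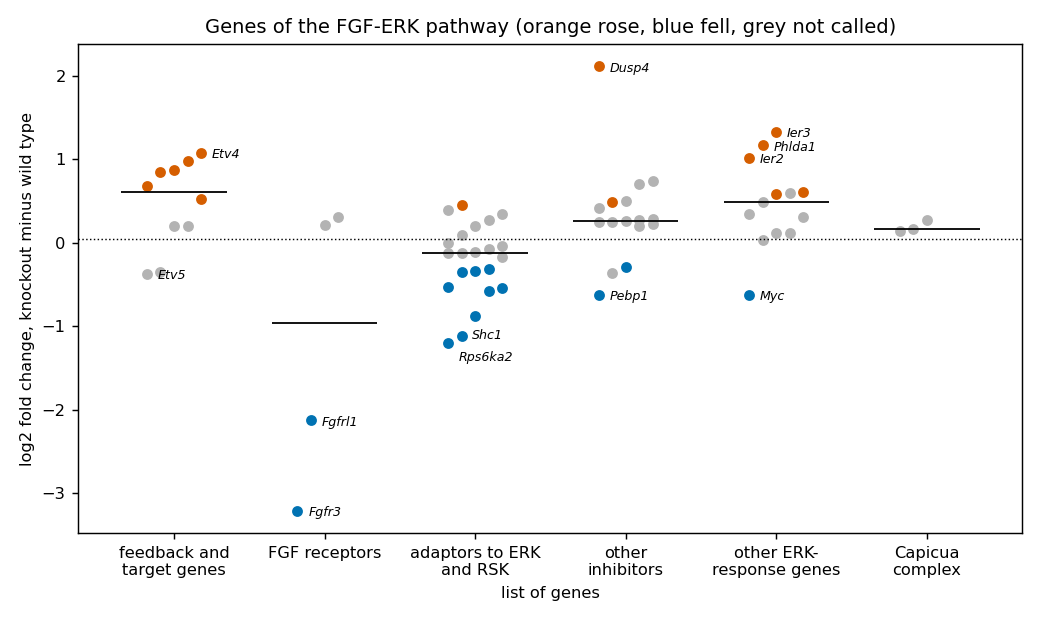
Log2 fold change (vertical axis, knockout minus wild type) of each tested gene in 6 lists of FGF-ERK pathway genes (horizontal axis), orange where it rose, blue where it fell and grey where it was not called, with a bar at each list's median and a dotted line at the median of all genes tested, 0.04. The medians are 0.60 for the feedback and target genes, -0.96 for the receptors, -0.12 from adaptors to ERK and RSK, 0.27 for other inhibitors, 0.48 for other ERK-response genes and 0.17 for the Capicua complex.

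The promoters of the genes that rose were read for binding motifs of factors that act downstream of ERK. RefSeq promoter windows (GRCm38.p6) were matched by symbol for 8 of the 10 genes, all but Etv4 and Spry4, and the 250 bases before the start site were searched on both strands. The motifs were the ETS motif CCGGAA, the Capicua motifs TGAATGAA and TGAATGGA, the AP-1 motif TGACTCA and the cyclic AMP response motif TGACGTCA. The windows below belong to the 3 rising genes of largest change that were matched, and capitals mark a motif. The Spred3 window (chr7:29168648-29168897, minus strand) lies before the coding transcript, in a part of the gene with no annotated exon. The Dusp6 window (chr10:99262981-99263230, plus strand) lies outside annotated genes, and the Il17rd stretch (chr14:27038751-27038940, plus strand, 190 bases) ends at the annotated gene start.
Spred3: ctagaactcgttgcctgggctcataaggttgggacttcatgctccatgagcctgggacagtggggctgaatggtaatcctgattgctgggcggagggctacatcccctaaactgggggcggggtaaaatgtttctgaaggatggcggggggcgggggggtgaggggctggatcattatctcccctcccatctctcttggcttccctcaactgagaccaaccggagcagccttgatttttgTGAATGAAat
Dusp6: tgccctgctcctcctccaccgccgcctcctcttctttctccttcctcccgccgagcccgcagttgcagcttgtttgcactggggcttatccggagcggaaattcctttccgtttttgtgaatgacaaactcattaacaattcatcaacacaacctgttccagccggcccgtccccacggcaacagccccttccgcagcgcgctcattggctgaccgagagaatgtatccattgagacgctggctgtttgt
Il17rd: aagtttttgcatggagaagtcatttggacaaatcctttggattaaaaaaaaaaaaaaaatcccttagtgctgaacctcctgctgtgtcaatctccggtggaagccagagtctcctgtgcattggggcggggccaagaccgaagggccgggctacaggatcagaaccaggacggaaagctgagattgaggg
Spred3 held a Capicua motif that begins 10 bases before the start site, and 2.07% of 32851 promoter windows of the same length hold 1 of these motifs. None of the other 7 genes held a Capicua motif. None of the 8 held the exact ETS, AP-1 or cyclic AMP response letters, which 12.0%, 4.46% and 1.55% of all windows hold. Shorter or variant forms of these motifs were not searched, so sites of other letters may be present. A motif is a match of letters and not evidence of binding, and these windows do not cover distant enhancers or most of the introns.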

How the data were processed

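The authors deposited 1 table per library, which lists raw counts, CPM and RPKM for every feature, per the file headers. The deposited CPM equals the count over the library total, without further scaling, and the deposited RPKM divides that CPM by 1 length per feature. The submitters' processing notes name GRCm38 and edgeR. The aligner and counter: not given in the sources used here. Libraries were TruSeq preparations from polyadenylated RNA, read as single ends of 51 bases, per the labels' protocols; this kit keeps no strand. In 26 features count and CPM disagreed by more than 0.0001; these held 0.0424% to 0.0636% of a library's counts and were left out.

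Counts were tested in R 4.3.3 with the edgeR 4.0.16 quasi-likelihood test (filterByExpr with a minimum count of 10, TMM scaling, no covariate) on all 14271 genes passing the filter, adjusted by Benjamini-Hochberg; all 10 genes passed the filter. Standard errors are the log2 change over the square root of F, and ratios used log2 CPM with a prior count of 2. Mean ± SD refers to 3 libraries, and depth was 9082219 to 28391662 counts. Coordinates and exon overlaps are from GENCODE vM21. The script was tested on simulated counts. Replicates differed by more than counting noise. Alternatives were DESeq2 1.42.0, limma-voom 3.58.1, other scalings and filters, a replicate block and leaving out each library. Pathway lists and genes (the 10 genes, Prox1, receptors, and up to 6 called genes per list and direction) were chosen with earlier results of these data known; some genes that enter the counts are not reported here by name.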

Additional observations from a re-analysis of the deposited data

How the results depend on the processing

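The number of the 10 genes past the threshold was 6 in the edgeR fit and lay between 5 and 8 over the 15 alternatives, with 6 rising in every alternative except those without wild type library 2 or 3 (5) and with library totals alone (7, where Spry1 passed, edgeR adjusted p 0.00879). With library totals alone, the scale of the deposited CPM, the median change of all genes moved by 0.35. On that scale Spry2 had a log2 difference of 0.011 and Rasa1 of 0.06, opposite in sign to the values reported. Relative to the median of all genes, Spry2 was at -0.38 on that scale and -0.40 in the main scaling, and Dusp6 at 0.82 and 0.83. The genes called over the whole table were 2263 rising and 2396 falling, and 5423 and 945 with library totals alone; without 1 library the count of 4659 lay between 2267 (wild type library 2 left out; 2475 for wild type library 3) and 5317. The count of other pathway genes called was 22 (8 rising, 14 falling), 34 (29 and 5) with library totals alone, and between 13 (wild type library 2 left out) and 29 without 1 library. The cause of these shifts was not tested. The 3 ratios kept their direction without any 1 library (Etv4 to Etv5 1.28 to 1.76, Spred3 to Spred1 0.22 to 0.44, Dusp6 to Spry2 1.08 to 1.47). Same-numbered libraries did not deviate together in every pair (r -0.03, 0.25 and 0.11 across genes for numbers 1 to 3). Libraries of different numbers had r between -0.22 and 0.09, below the values of numbers 2 and 3. Whether the numbers pair the libraries is therefore not settled, and the main fit has no block. With a replicate block 7 of the 10 genes passed, the same 6 rising and Etv5 lower (edgeR adjusted p 0.0278), and 4176 genes over the whole table. Rps6ka3 (edgeR adjusted p 0.0651) and Ets2 (0.0887) did not pass with the block. The block leaves the ratio differences as they were by construction. With 3 libraries per group, changes smaller than the printed intervals may have been missed.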

Other observations

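For each of the 6 genes that rose, the genes with the most similar profile over the 6 libraries were listed, by Pearson correlation of log2 CPM among 9481 genes with a mean of at least 10 CPM. The profiles share the 6 libraries and the contrast between the groups, so these values are a description. Dusp6 was followed by Aif1l, Zbtb45 and Smo, with r between 0.995 and 0.997, and Etv4 by Rerg, Hs1bp3 and Grb10 (each 0.998). Spred1 was followed by Maml2, Pcdh19 and Astn1 (each 0.995), Spred2 by Dap, Sppl3 and Smad7 (0.994 to 0.996), Spred3 by Adrbk2, Smox and Fam76b (0.997 to 0.999) and Il17rd by Specc1l, Mbtps1 and Tmem184b (0.997 to 0.999). The changes of these genes differed in size: Maml2 differed by 1.44 on the log2 scale and Tmem184b by 0.19.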
